A study of Mus musculus with 6 samples.

Results

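Signals of 9 genes used as markers of marrow stromal cells and fibroblasts were read in the whole marrow of mice with inducible c-Jun. The genes were Lepr, Kitl, Pdgfra, Pdgfrb, Vim, Acta2, Tagln, Thy1 and Eng, and all 23 probe sets that carry 1 of these symbols alone in the authors' deposited results table were taken, out of 45101 probe sets and 20678 distinct symbols. c-Jun belongs to the transcription factor AP-1, and fibrosis is the subject named in the study's title. The 3 control arrays came from c-Jun inducible mice that were not induced (day 0). The 3 induced arrays came from c-Jun inducible mice whose drinking water held doxycycline at 1 mg/ml over 24 h (day 1). All mice were 8 weeks old and all carried the inducible construct, whose promoter is not given in the sources used here. Each array held RNA pooled from 3 mice. No mice given doxycycline without c-Jun induction were analysed here, so effects of doxycycline, of c-Jun and of the day cannot be told apart.

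The stroma of bone marrow is the small non-haematopoietic fraction that holds blood-forming cells in place and feeds them. Perivascular stromal cells of mouse marrow carry the leptin receptor Lepr and the PDGF receptors Pdgfra and Pdgfrb, and they make the stem cell factor Kitl, which acts on Kit of stem and progenitor cells. Acta2, smooth muscle alpha actin, and Tagln, transgelin or SM22, are contractile proteins of vascular smooth muscle that are also used to mark myofibroblasts. Eng, endoglin, is a co-receptor for the TGF-beta family found on endothelial and stromal cells, and Thy1 is a surface glycoprotein of fibroblasts and, in the mouse, of T cells. Vim, vimentin, is the intermediate filament of mesenchymal cells and is also made by leukocytes, so that in whole marrow it is not a marker of stroma alone.

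After 24 h of induction, Vim was the 1 gene of the 9 that was called higher. It was read higher by each of its 3 probe sets, by 1.60-fold, 1.75-fold and 2.49-fold as ratios of mean signal. The other 8 genes were read at or near background in both groups, and 0 of their 17 tested probe sets were called (limma; 1 had an unadjusted p under 0.05). Of all tested probe sets 5.54% were called, and 937 of the 1320 called higher had a mean signal over 10. Called rises thus lay mostly among bright probe sets, and 0 of 17 dim ones says little about these genes. Values below are the authors' deposited MAS5 signals in arbitrary units. A signal of 2 was taken as background, since none of 27 probe sets for the bacterial control transcripts named Dap, Lys, Phe, Thr or Trp went over it on any array. Controls named BioB, BioC, BioDn or Cre were left out when this level was set. Of all probe sets other than array controls, 59.1% stayed at or under that level on every array, so a signal there gives only a bound and does not show that a gene is silent.

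The tissue label was checked against marker lists, with each gene read by its brightest probe set. All 14 haematopoietic markers found on the array were over background on all 6 arrays, whereas 0 of 14 skeletal muscle markers and 0 of 20 endothelial markers were. Jun itself was near background, at 1.13 ± 0.90 in control and 2.80 ± 1.41 in induced arrays for its brighter probe set (SD, n = 3 each; limma, adjusted p = 0.446). Control 2 stood apart by its 346 signals of 0, against 4653 to 7818 on the other arrays. The summed signal was 189287 to 214237 in controls and 222930 to 278500 in induced arrays, and the median log2 ratio of means was 0.41 over the 2868 probe sets whose mean signal exceeded 10, a shift that is not removed from the signals given below. For Gapdh, the signal at the 5' end as a percent of that at the 3' end was 12.5% to 22.7% in controls and 25.8% to 28.9% in induced arrays. A two-sided exact permutation test gave p = 0.1, the least that 3 against 3 arrays allow, and the part of this in any result was not tested.

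Vim lies on mouse chromosome 2, and because it alone among the members was called higher, the 250 bases before its start site are shown. The sequence is from RefSeq (GRCm38.p6, plus strand, chr2:13574061-13574310), and the capitals mark a TATAAA box.
Vim: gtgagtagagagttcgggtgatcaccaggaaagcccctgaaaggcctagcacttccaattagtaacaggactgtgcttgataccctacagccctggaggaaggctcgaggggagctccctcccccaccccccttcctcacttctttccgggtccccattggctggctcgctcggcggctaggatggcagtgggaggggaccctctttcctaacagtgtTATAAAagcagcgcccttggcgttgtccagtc
The window searched ran from 250 bases before to 50 after the start site, on both strands, for TATAAA, for the AP-1 letters TGANTCA, for the cyclic AMP response element TGACGTCA and for the GC box GGGCGG. In Vim the first was found 1 time, 32 bases before the start site, and the others 0 times. Over all 32851 promoter windows of the table, 13.6% held TATAAA, 7.81% TGANTCA, 1.79% TGACGTCA and 35.7% GGGCGG. Of the 9 members 6 have a window in the table, and 0 of their windows held TGANTCA or TGACGTCA. TATAAA was also found in Kitl, where it began 25 bases before the start site, together with 3 GC boxes. A GC box was also found 1 time in 1 of the 2 windows of Lepr. These matches describe letters in the windows only.

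Vim was read by 3 probe sets. By 1438118_x_at its signal was 134.4, 147.7 and 154.6 in controls 1 to 3 and 244.5, 244.5 and 209.8 in induced arrays 1 to 3. By 1456292_a_at the controls read 103.6, 105.8 and 118.2 and the induced arrays 206.9, 170.1 and 195.8. By 1450641_at the controls read 29.4, 27.1 and 38.1 and the induced arrays 87.0, 70.9 and 77.6. For each of the 3, the lowest induced array lay above the highest control array. Letters in the probe set names are Affymetrix's own marks: an x marks probes that may also match other genes, an a several transcripts of 1 gene.

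**Figure D1:**
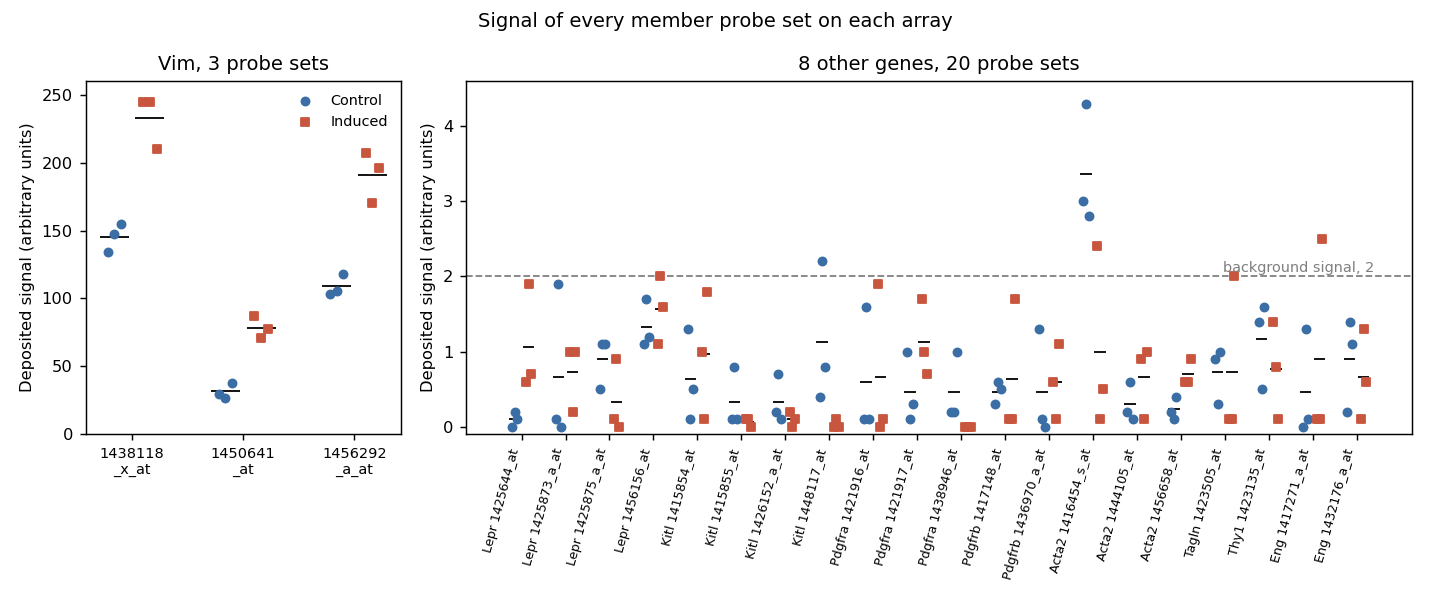
Deposited signal (arbitrary units, linear axes) of every member probe set on each of 3 control arrays (circles) and 3 induced arrays (squares), with group means as bars. The 3 Vim probe sets on the left read 27.1 to 154.6 in controls and 70.9 to 244.5 in induced arrays without overlap, while the 20 probe sets of the other 8 genes on the right stay at 4.3 or lower, mostly under the dashed line at the background signal of 2.

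On the log2(signal + 16) scale used for the test, Vim rose by 0.62 with a standard error of 0.07 for 1438118_x_at (limma, adjusted p = 0.00118), by 0.72 with a standard error of 0.08 for 1456292_a_at (adjusted p = 6.96e-04) and by 0.99 with a standard error of 0.09 for 1450641_at (adjusted p = 3.63e-04). These are 3 of 20 tested member probe sets called higher and 0 called lower. Of all tested probe sets 5.54% were called, 4.19% higher and 1.35% lower. Among the 2868 bright probe sets (mean signal over 10), the range in which Vim lies, 32.7% were called higher, so a call in that range was common. The rise of 1438118_x_at was larger than that of 66.1% of these bright probe sets, that of 1456292_a_at larger than 74.2% and that of 1450641_at larger than 93.9%, as log2 ratios of mean signal.

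The size of the Vim rise depended on scaling. After arrays were brought to 1 median of the bright probe sets, the 3 log2 changes were 0.37, 0.47 and 0.79 in the same order (adjusted p = 0.0246, 3.94e-04 and 4.81e-05, limma). After quantile normalization they were 0.16, 0.36 and 0.78, and the first was no longer called (adjusted p = 0.525, 0.00135 and 3.09e-05). With the pseudocount set to 1 the changes were 0.67, 0.80 and 1.30 and none was called (adjusted p = 0.462, 0.385 and 0.152), while 0.349% of all probe sets were called higher at that setting. At the same pseudocount with a variance prior that follows intensity, all 3 were called (adjusted p = 0.00226, 2.74e-04 and 1.58e-07). Without control 2 the changes were 0.63, 0.70 and 0.93 (adjusted p = 0.0116, 0.00900 and 0.00469).

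**Figure D2:**
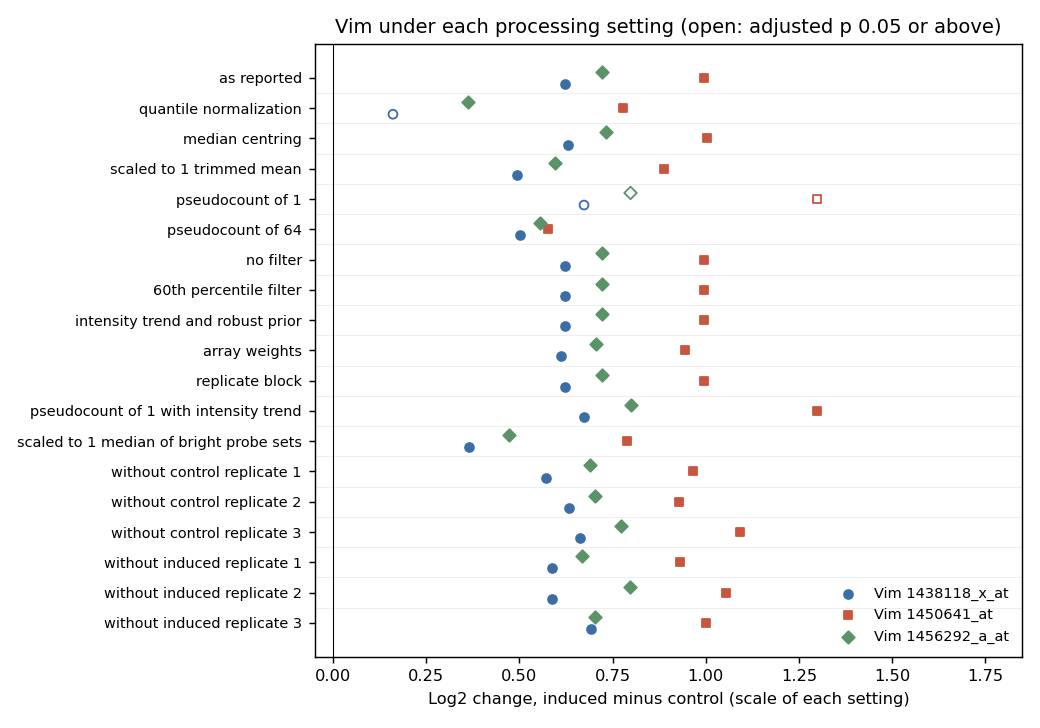
Log2 change of the 3 Vim probe sets, induced minus control, under each processing setting; filled symbols have an adjusted p under 0.05 in limma and open ones do not. Every value is above 0, from 0.16 for 1438118_x_at after quantile normalization to 1.30 for 1450641_at with a pseudocount of 1.

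In their own deposited table the authors gave smaller induced over control ratios for Vim, at 1.32 for 1438118_x_at, 1.46 for 1456292_a_at and 1.90 for 1450641_at, with unadjusted p-values of 7.19e-05, 3.84e-04 and 4.55e-04. These ratios differ from those of the deposited signals, so here and below they may rest on other values, which the sources used here do not give. None of the 23 member probe sets was on the list of 2-fold differences that the authors deposited. Taken as a share of the summed signal of its array, 1450641_at read 127 to 178 ppm in controls and 312 to 326 in induced arrays. The corresponding ranges were 690 to 722 and 878 to 1097 for 1438118_x_at, and 494 to 552 and 743 to 822 for 1456292_a_at. The groups did not overlap by this measure either (two-sided exact permutation p = 0.1 for each).

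The Vim probe sets did not rise by the same amount. The log2 signal of 1438118_x_at minus that of 1450641_at was 2.19, 2.45 and 2.02 in controls and 1.49, 1.79 and 1.43 in induced arrays. The change of 1450641_at was thus larger by 0.65 on the log2 scale, with no overlap between groups (two-sided exact permutation p = 0.1). Between 1438118_x_at and 1456292_a_at the corresponding difference was 0.13 (exact permutation p = 0.5).

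Receptors of stromal cells were at or under background on nearly all arrays. All 24 signals of the 4 Lepr probe sets lay between 0 and 2. The Lepr probe set 1425644_at read 0, 0.2 and 0.1 in controls and 0.6, 1.9 and 0.7 in induced arrays, which do not overlap but are all at or under background (limma, adjusted p = 0.558). In the authors' deposited table the same probe set had an induced over control ratio of 1.27 and an unadjusted p-value of 0.0371. The 3 Pdgfra probe sets read 0 to 1.9 over 18 signals, and 1 of them, 1438946_at, was at 0 on all induced arrays and at 0.2, 0.2 and 1.0 in controls, too dim to be tested. The 2 Pdgfrb probe sets read 0 to 1.7 over 12 signals (adjusted p of both 0.959, limma). Eng had 1 signal over background among 12, the 2.5 of 1417271_a_at on induced 3, against 0.1 on the other induced arrays. Apart from that 1 signal, each of these receptors has only an upper bound in both groups, and no fold is given.

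The ligand Kitl was likewise near background in 23 of 24 signals of its 4 probe sets. By 1448117_at the controls read 0.4, 2.2 and 0.8 and the induced arrays 0, 0.1 and 0, without overlap between groups (limma, adjusted p = 0.525). The highest of these, and the only Kitl signal over 2, was on control 2, the array with few signals of 0. Of the other 3 Kitl probe sets, 1415854_at had overlapping groups (adjusted p = 0.907, limma), and 1415855_at and 1426152_a_at were too dim to be tested. Kit, the receptor of this ligand, was itself read at 0.1 to 1.8 in controls and 1.2 to 2.3 in induced arrays (limma, adjusted p = 0.524), although it marks progenitor cells of marrow.

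Neither smooth muscle gene was called. Acta2 was the 1 gene besides Vim that was over background on all arrays of a group, by its probe set 1416454_s_at, where the s marks probes shared with related transcripts. It read 3.0, 4.3 and 2.8 in controls and 2.4, 0.1 and 0.5 in induced arrays. Every induced array lay under every control array, but the difference did not pass the test (log2 change -0.19 with a standard error of 0.06, unadjusted p = 0.0146, adjusted p = 0.164, limma), and the induced group was over background on 1 array only. The other 2 Acta2 probe sets stayed at 1.0 or lower and went the other way, with 1456658_at at 0.2, 0.1 and 0.4 in controls and 0.6, 0.6 and 0.9 in induced arrays (adjusted p = 0.798, limma). The authors' deposited ratio of induced over control was 0.823 for 1416454_s_at, with an unadjusted p-value of 0.218.

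Tagln had 1 probe set, which read 0.9, 0.3 and 1.0 in controls and 0.1, 0.1 and 2.0 in induced arrays, with overlapping groups of the same mean (limma, adjusted p = 0.996). Thy1, also read by 1 probe set, was at 1.4, 0.5 and 1.6 in controls and 1.4, 0.8 and 0.1 in induced arrays (adjusted p = 0.875, limma). Both genes were at or under background on all 6 arrays.

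Among the 20 probe sets of the 8 genes other than Vim, 114 of 120 signals were at or under background, 4 of the others being on control and 2 on induced arrays. Their summed signal was 12.5, 19.8 and 12.9 in controls and 14.0, 9.6 and 16.4 in induced arrays, with overlapping groups (two-sided exact permutation p = 0.7). The log2 changes of the 17 tested ran from -0.19 to 0.08 with a median of 0.01, 11 above and 6 below 0, against a median of 0.00 over all tested probe sets. With 16 added to each signal, changes among signals this dim are held near 0, so the test could hardly call them. The smallest adjusted p of the 17 was 0.164, for Acta2 (limma). At a pseudocount of 1 the changes ran from -1.28 for Acta2 1416454_s_at to 0.86 for Lepr 1425644_at, and 0 were called. Groups did not overlap for 4 of these 17, against 18.0% of all tested probe sets. The other 3 probe sets, 2 of Kitl and 1 of Pdgfra, fell under the filter on low values.

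**Figure D3:**
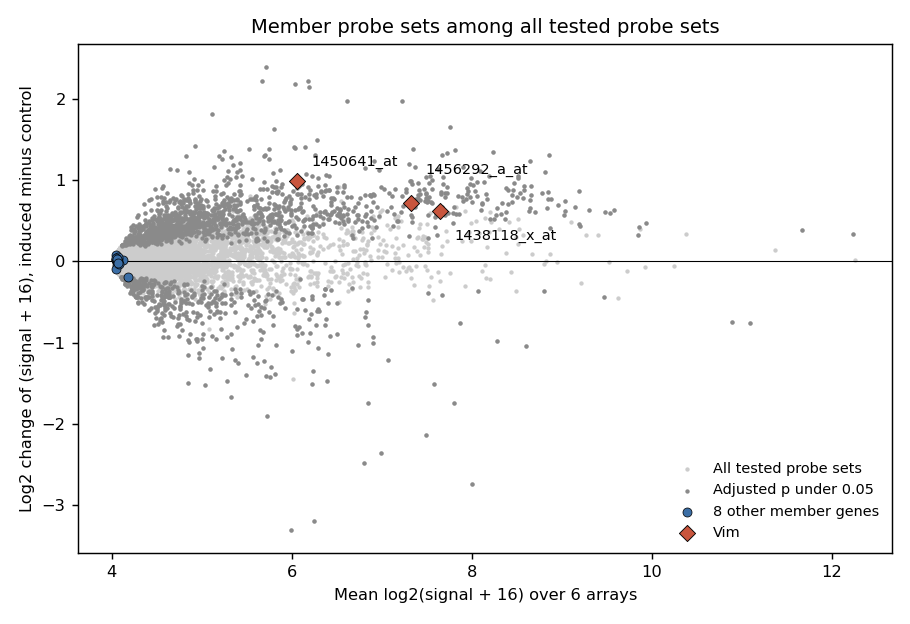
Log2 change of (signal + 16), induced minus control, against the mean log2(signal + 16) over 6 arrays for all 31523 tested probe sets (light grey; dark grey where called) with the 20 tested member probe sets on top. The 3 Vim probe sets (diamonds) lie at 0.62 to 0.99, and the 17 others (circles) sit at the dim end between -0.19 and 0.08.

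Other genes of the stroma give context, each read by its brightest probe set. Of all genes read in this way 48.6% were at or under background on all arrays. Of 24 further genes of stromal niche cells, 7 were at or under background on all arrays, namely Foxc1, Prrx1, Grem1, Nes, Mcam, Ngfr and Itga8. Of the 22 tested 3 rose and 0 fell (limma). After quantile normalization 2 were called higher and 1 lower, Gas6, a ligand of receptor tyrosine kinases, which went from a mean signal of 4.07 ± 1.08 to 1.50 ± 0.44 (SD, n = 3 each; limma, adjusted p = 0.0292, and 0.0833 on signals as deposited). The counts were also 2 and 1, with Gas6 as the fall, after scaling to 1 trimmed mean and to 1 median of bright probe sets. By gene, 6.96% of all 16273 tested were called, 5.13% higher and 1.83% lower. The list's median log2 change was -0.02, against 0.00 over all genes tested. Cxcl12, the chemokine that retains stem cells in the marrow, read 2.8, 6.7 and 2.7 in controls and 11.4, 11.3 and 10.5 in induced arrays, a 2.72-fold rise (adjusted p = 0.00905). Lpl, the lipase of fat and stromal cells that macrophages also make, read 3.3, 5.1 and 4.0 in controls and 17.5, 20.5 and 13.6 in induced arrays, a 4.16-fold rise (adjusted p = 7.88e-04). The third, the adhesion molecule Vcam1, is also made by marrow macrophages and rose 1.47-fold (adjusted p = 0.0244), a call lost without control 1 (0.0914), control 2 (0.0958), induced 1 (0.0846) or induced 3 (0.104) and after quantile normalization (0.0938). Cxcl12 and Lpl kept their calls without each single array and after quantile normalization, and at a pseudocount of 1 only Lpl was called (adjusted p = 0.0299).

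Contractile genes of smooth muscle and pericytes moved in both directions, with 2 of 15 tested called higher and 1 lower and a median log2 change of -0.03 (limma). Of all tested genes 5.13% were called higher and 1.83% lower, and of the bright probe sets 32.7% were called higher. The same shares stand beside the counts of the matrix genes below and of the next 2 paragraphs. Tpm1, a tropomyosin made in many cell types, rose from 10.9 ± 3.19 to 30.8 ± 5.86 (SD, n = 3 each; adjusted p = 0.00215, limma). Mylk, myosin light chain kinase, went from 1.97 ± 0.61 to 5.63 ± 0.38, a call lost without induced 3 (adjusted p = 0.0118, and 0.0581 without it; limma, n = 3 each). Flna, the actin crosslinker filamin A, fell from 39.1 ± 4.45 to 22.0 ± 5.04, a call lost without control 3 (adjusted p = 0.0114, and 0.0585 without it; limma, n = 3 each). The more restricted markers Myh11, smooth muscle myosin, and Cnn1, calponin 1, read 0.1 to 1.2 and 0 to 2.0 over the 6 arrays, at or under background throughout. Of 20 fibroblast matrix genes, 9 were at or under background, namely Dcn, Lum, Dpt, Postn, Fbn1, Fap, Loxl1, Lox and Mfap5. Of the 19 tested 3 rose (Col1a1, Col1a2 and Sparc) and 1 fell (Fn1), with a median log2 change of 0.03 (limma). The call of Col1a1 was lost without control 3 (adjusted p = 0.0554). Col1a2, a chain of type I collagen, read 6.2, 6.5 and 5.9 in controls and 21.1, 17.2 and 15.6 in induced arrays. Fn1, fibronectin, read 15.4, 15.3 and 17.9 in controls and 1.5, 2.1 and 2.0 in induced arrays. Its adjusted p was the smallest of the list (3.93e-05, limma). The fall of Fn1 kept its call without each single array and after quantile normalization.

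Relatives of the members by sequence were read in the same way. At or under background on all arrays were 4 of 7 actin and transgelin relatives and 5 of 13 intermediate filament relatives. The brightest relative, Actb, read 2527 ± 463 in controls and 2766 ± 392 in induced arrays and was not called (SD, n = 3 each, adjusted p = 0.768 by limma). Of 7 actin and transgelin relatives 3 were tested and 1 rose (limma), the cytoplasmic actin Actg1, from 134 ± 21.1 to 207 ± 24.0 (SD, n = 3 each; limma, adjusted p = 0.0141). That call was lost without control 2 (0.0566) or induced 3 (0.0673) and after quantile normalization (0.531). Tagln2, a transgelin made outside smooth muscle, read 6.9, 9.6 and 7.1 in controls and 21.5, 12.4 and 12.6 in induced arrays, which did not pass the test (adjusted p = 0.0682, limma) but did after scaling to 1 trimmed mean (0.0354). The muscle actins Acta1 and Actg2 were at 1.0 or lower on every array. Among 12 tested intermediate filament relatives 1 rose, the nuclear lamin Lmna, from 6.30 ± 2.51 to 21.5 ± 3.14 (SD, n = 3 each; limma, adjusted p = 0.00121). Desmin, Des, was at 1.0 or lower on every array and Nes, nestin, likewise.

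Ligands, receptors and mediators that pair with the members showed 2 rises among 20 tested and 0 falls (limma; 4 had an unadjusted p under 0.05). They were the TGF-beta receptor Tgfbr2, at 2.63 ± 0.91 and 7.73 ± 2.46, and Smad1, which carries the signal of BMP receptors, at 6.97 ± 0.49 and 11.6 ± 2.11 (SD, n = 3 each; limma, adjusted p = 0.0297 and 0.0413). Both lost the call without control 2 (0.114 and 0.138), control 3 (0.123 and 0.108), induced 1 (0.0539 and 0.133) or induced 3 (0.0780 and 0.161), Smad1 also without control 1 (0.102), and both after quantile normalization (0.0534 and 0.270). The endothelial partner of Eng, Acvrl1, read 0.1 to 2.7 (adjusted p = 0.980, limma). Of 16 endothelial markers tested 0 were called, 0 at an unadjusted p under 0.05 (limma), and Pecam1 read 0.5, 3.0 and 2.2 in controls and 0.7, 2.7 and 1.1 in induced arrays.

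**Figure D4:**
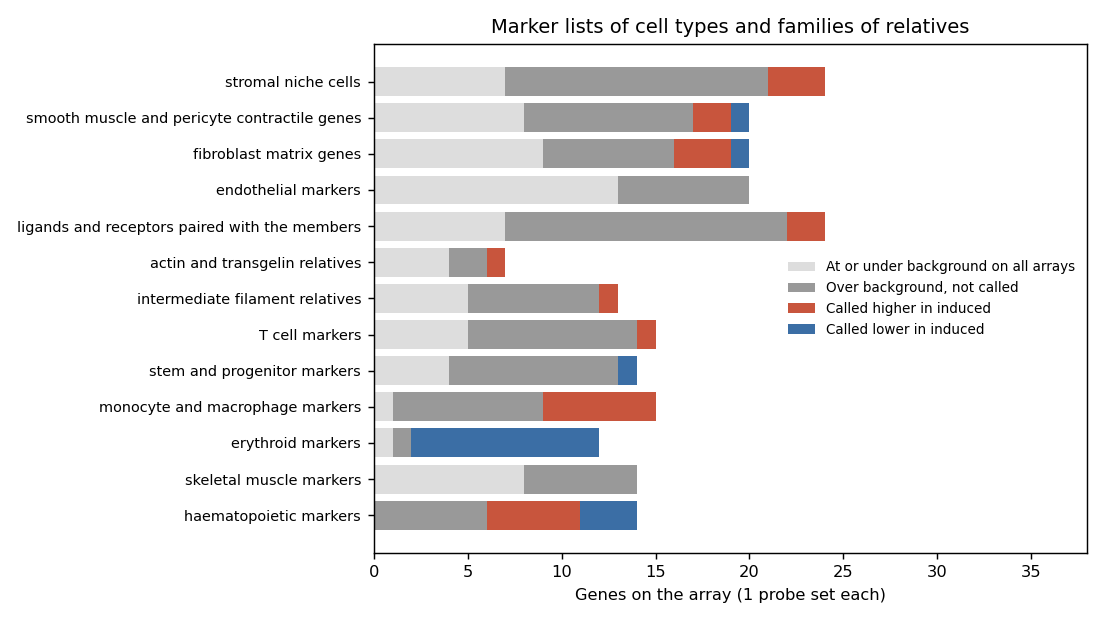
Number of genes of each fixed list on the array, 1 probe set per gene, split into those at or under background on all arrays, those over it but not called, and those called higher or lower in induced arrays (limma, adjusted p under 0.05). Of 20 endothelial markers 13 were at or under background, and of 12 erythroid markers 10 were called lower. Over all genes read in this way 48.6% were at or under background, and 1.83% of those tested were called lower.

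Markers of other marrow cells that make Vim were called in the same arrays, and their part in the Vim rise was not tested. In RNA of whole marrow, more cells of a type and more RNA per cell cannot be told apart. Monocyte and macrophage markers were called higher in 6 of 15 and lower in 0 (limma), and their summed signal was 91.3 to 124 in controls and 141 to 178 in induced arrays (two-sided exact permutation p = 0.1). Vcam1, counted above among stromal niche cells, is 1 of these 6. Of all tested genes 5.13% were called higher and 1.83% lower, and of the bright probe sets 32.7% were called higher. These shares also stand beside the counts of the next paragraph. The lysosomal protein Cd68 read 6.6, 4.8 and 7.3 in controls and 18.6, 18.1 and 13.6 in induced arrays, while the colony-stimulating factor receptor Csf1r rose 1.89-fold, a call lost without control 2 (adjusted p = 0.0504), control 3 (0.0829), induced 1 (0.105), induced 2 (0.0979) or induced 3 (0.0615; limma) and after quantile normalization (0.192). The number of called rises in that list fell to 2 or 3 without any 1 of control 1, control 2, control 3, induced 1 and induced 3. After quantile normalization 4 were called higher and 1 lower, the chemokine receptor Ccr2 (adjusted p = 0.0238, limma).

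Among 14 haematopoietic markers 5 were called higher and 3, Mpo, Elane and Ltf, were called lower (limma). The leukocyte integrin chain Itgb2 read 19.3, 21.3 and 21.4 in controls and 47.3, 46.1 and 49.9 in induced arrays, and the leukocyte phosphatase Ptprc rose 1.50-fold (adjusted p = 0.00994, and 0.0543 without control 2, 0.0514 without induced 3, 0.167 after quantile normalization and 0.151 after scaling to 1 median of bright probe sets; limma). Mpo read 154.9, 134.7 and 158 in controls and 85.9, 60.6 and 67.5 in induced arrays (adjusted p = 8.75e-04, limma). Elane read 21.1, 17.7 and 31.6 in controls and 10.3, 6.3 and 8.3 in induced arrays (adjusted p = 0.00825, limma). Mpo and Elane kept their calls without each single array and after quantile normalization. Ltf kept its call after quantile normalization but lost it without any 1 of control 1, control 3, induced 2 and induced 3 (limma). Without control 2, 2 of the haematopoietic markers were called higher, and after quantile normalization 3 were called higher and 7 lower. Erythroid markers were called lower in 10 of 11, and their summed signal was 1200 to 1392 in controls and 281 to 356 in induced arrays. T cell markers had 1 rise among 14 tested (limma), Il7r, which lost its call without any array but control 2 and after quantile normalization (adjusted p = 0.0639). Of 13 stem and progenitor markers tested 1 was called lower, the transcription factor Myb, and 0 of 9 tested skeletal muscle markers were called, 0 at an unadjusted p under 0.05 (limma). The summed signal of the T cell markers was 14.3 to 21.9 in controls and 24.9 to 28.3 in induced arrays, and the 3 CD3 chains, which define T cells, differed among themselves. Cd3d read 1.2, 3.0 and 0.2 in controls and 3.6, 4.9 and 4.4 in induced arrays, without overlap between groups (limma, unadjusted p = 0.00794, adjusted p = 0.107). Cd3e read 0.3 to 2.2 in controls and 1.2 to 2.3 in induced arrays, and Cd3g stayed at or under background on every array.

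The genes whose pattern over the 6 arrays was most like that of a member are given as a description, by Pearson's r of log2(signal + 16) among 27278 other probe sets. For Vim 1438118_x_at they were the chemokine Ccl6, Sdcbp and the immunoglobulin chain Ighm (r = 0.998, 0.997 and 0.996), and for 1456292_a_at Tmem71, the elongation factor Eef1a1 and the haem oxygenase Hmox1 (r = 0.998 for each). For 1450641_at they were Itm2b, Eif2c3 and Dapp1 (r = 0.999, 0.997 and 0.996), of which Eif2c3 was under background. With 6 arrays in 2 groups such values are common, and r was over 0.9 for 1053, 1301 and 1231 probe sets, respectively. For Acta2 1416454_s_at the nearest were AI314760, Heyl and Neil3 (r = 0.996, 0.995 and 0.994), with means of 2.33 or lower in both groups.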

How the data were processed

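For each probe set of 6 Affymetrix mouse arrays the authors deposited a signal intensity on a linear scale, from MAS5 per the submitters' processing notes, whose version and scaling target are not given in the sources used here. RNA was extracted with Trizol, amplified and labelled with biotin, per the labels' protocols. Their deposited ANOVA table holds, per the file headers, p-values without adjustment and the linear ratio of the control to the induced group, which is printed here inverted.

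Signals were transformed as log2(signal + 16), and the 64 array control probe sets and those with a mean at or under the 30th percentile were left out. The other 31523 were tested in R 4.3.3 with limma 3.58.1 (lmFit, then eBayes), as the difference of induced from control arrays, at a threshold of 0.05 after Benjamini-Hochberg adjustment over all of them. The spread behind each p-value is that between pools, and the number of arrays limits the precision. A two-sided exact permutation test compared measures with 1 value an array. A gene of a list was read by its single-symbol probe set with the highest mean, and with fewer than 4 arrays a group no array was tested as an outlier. Alternatives were other scalings between arrays, other pseudocounts, filters and variance priors, array weights, a replicate block, a gene read as the average of its probe sets, the authors' deposited ratios, and each array left out. Scripts were tested on simulated data. Figures were drawn with matplotlib 3.10.9.

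Members, lists and the rule for named genes (all members; of each list the called genes, up to 4, and its bright genes; paralogues; the 3 most alike genes) were chosen with earlier results of these data known. Cd3d, Cd3e, Cd3g, Gas6, Ccr2, Kit, Myh11, Cnn1, Des, Nes, Acvrl1, Csf1r, Ptprc and Ltf are outside that rule. So are the stromal niche and matrix genes named for being at or under background. All of these were picked once values had been seen. Some genes within the rule are not named above. Among them are C1qb, Cd14, Cd79b, S100a9, Cnn2, S100a4, Jak2, Lmnb1, Tnni2, Tfrc, Ermap, Slc4a1 and Ahsp. Same-numbered control and induced arrays had correlations of -0.07, 0.04 and -0.03 between their deviations from group means. Those of arrays with different numbers ran from -0.13 to 0.15. No pairing by number was seen, but with 3 arrays a group and mostly dim signals this cannot exclude one. Promoter sequences came from a RefSeq table (GRCm38.p6), which holds 6 of the 9 members.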

Additional observations from a re-analysis of the deposited data

How the results depend on the processing

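Each Vim probe set stayed higher in induced arrays under all 18 alternatives with a test, and the call held in 16 for 1438118_x_at and in 17 each for 1450641_at and 1456292_a_at. Their log2 changes ran from 0.16 to 0.69, 0.58 to 1.30 and 0.36 to 0.80. At a pseudocount of 1, 0 member probe sets were called higher; under every other setting 2 or 3 were, and 0 were called lower in any. With all probe sets of a gene averaged, Vim remained the 1 gene called. The replicate block (replicate number in the fit) changed no member call, and the 3 Vim probe sets had adjusted p-values of 0.0105, 0.00238 and 0.00402 there. Over the whole table, 1320 probe sets were higher and 427 lower. The counts were 973 and 852 after quantile normalization, 906 and 863 when scaled to 1 median of bright probe sets, 1041 and 598 when scaled to 1 trimmed mean, 110 and 101 at a pseudocount of 1, 801 higher at a pseudocount of 64, 595 and 246 without the filter, and 879 to 1362 and 277 to 437 when 1 array was left out. The scaling to 1 median, the pseudocount of 1 with an intensity trend, and most settings for lists were added after seeing the data.

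Dim members changed sign around 0 without any call, and the cause was not tested. Tagln had log2 changes of 0.0026 after quantile normalization, 0.0068 after median centring, 0.026 by the authors' deposited ratio and -0.055 to 0.025 without 1 array. Scaling to 1 median gave -0.0059 for Lepr 1425873_a_at, -0.0010 for Lepr 1456156_at, -0.010 for Pdgfra 1421916_at and -0.0015 for Pdgfrb 1436970_a_at. The authors' deposited log2 ratios, which may rest on values other than these signals, were -0.070 for Kitl 1415854_at, -0.093 and -0.043 for Pdgfrb 1417148_at and 1436970_a_at, -0.030 for Acta2 1456658_at and -0.033 for Eng 1417271_a_at. Without 1 array the ranges were -0.021 to 0.060 for Lepr 1425873_a_at, -0.0071 to 0.065 for Kitl 1415854_at, -0.016 to 0.048 for Pdgfra 1421916_at, -0.0082 to 0.034 for Pdgfrb 1436970_a_at and -0.050 to 0.0046 for Eng 1432176_a_at.

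For the 8 genes other than Vim, 114 of 120 signals were at or under the background signal of 2, and each such signal gives an upper bound only.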
